A study of Mus musculus with 64 samples.

Results

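Megakaryocyte-erythroid progenitors (MEP) sorted from the spleen were compared with MEP sorted from the bone marrow of the same 3 anemic scat mice. The 6 libraries, 3 per tissue, were chosen by label from the 64 of the series: cell type MEP, disease state critical, with both tissues sequenced from mice 2608, 2629 and 2953. All 3 mice were scat/scat homozygotes of the strain CbyJ.Cby-Rasa3(scat)/Llp, aged 23, 28 and 26 days, so both tissues carried the same Rasa3 allele and the comparison is one of site within the mutant. "Critical" is the state called crisis in the study, as distinct from partial remission. Other libraries were used beside it. One set was MEP of both tissues from 3 young wild-type mice (+/+ of the same strain, 28, 23 and 25 days). Another set was the stem and myeloid progenitor (SMP) sort of both tissues from the same 3 crisis mice. SMP were sorted as Kit+ Lin- Sca- cells that were CD34+ and CD16/32 low. MEP were sorted by a published scheme whose gate the labels cite without spelling it out. Each library was made from total RNA with a kit for mRNA, and each is 1 mouse, so the 3 values per tissue are separate animals.

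MEP are bipotent progenitors that give rise to red cells and to megakaryocytes, the cells that shed platelets. Red cell production in the adult mouse is centred in the marrow, and the spleen takes over a large share when anemia is severe. The product of Rasa3 speeds GTP hydrolysis by Ras and Rap1, small GTPases that carry signals from cytokine receptors and integrins, and the scat allele is a missense mutation of it. The comparison asks how far MEP that reside in the spleen during crisis differ from those left in the marrow.

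Values are the authors' normalised counts, rescaled among the 6 libraries by their median ratio. Triplets of values are always given in the order of mice 2608, 2629 and 2953. Differences are spleen minus bone marrow on the log2(value + 1) scale, with their standard error (SE), from limma with the mouse as a block. A gene was called where its p-value, adjusted by Benjamini and Hochberg over all 13736 genes tested, was under 0.05. The libraries held 36.6 to 50.5 M normalised counts each, and 16413 to 18312 genes above 0. Y-linked genes were abundant in all 6 libraries. Defining MEP markers were high in every library: the 11 markers summed to 268313, 280439 and 319731 in bone marrow and 248144, 277636 and 333622 in spleen. Cd34 and Fcgr3 (CD16), which an MEP gate excludes, stayed at or below 130.1 in every library. The full list of 6 gate exclusion genes holds more abundant ones. It summed to 3614, 1733 and 2025 in bone marrow and 458, 742 and 1069 in spleen. Its 4 tested members were lower in spleen in all 3 mice (median -2.01), and 1, Cd34, was called.

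One library stood apart before any comparison of tissues. The bone marrow library of mouse 2608 held B-lineage transcripts that the others lacked: 5 pre-B markers (Igll1, Vpreb1, Vpreb3, Dntt, Rag1) summed to 20116, 756 and 99.3 in bone marrow and 283, 57.8 and 31.1 in spleen. The low values of the same library came in steps of 1 size, which places its depth at 50.9 M reads if 1 step is 1 read. The other 5 libraries mixed 3 step sizes, with depths between 30.4 and 42.8 M on the same assumption. Counts are therefore also given without mouse 2608, which drops both of its libraries.

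**Figure D1:**
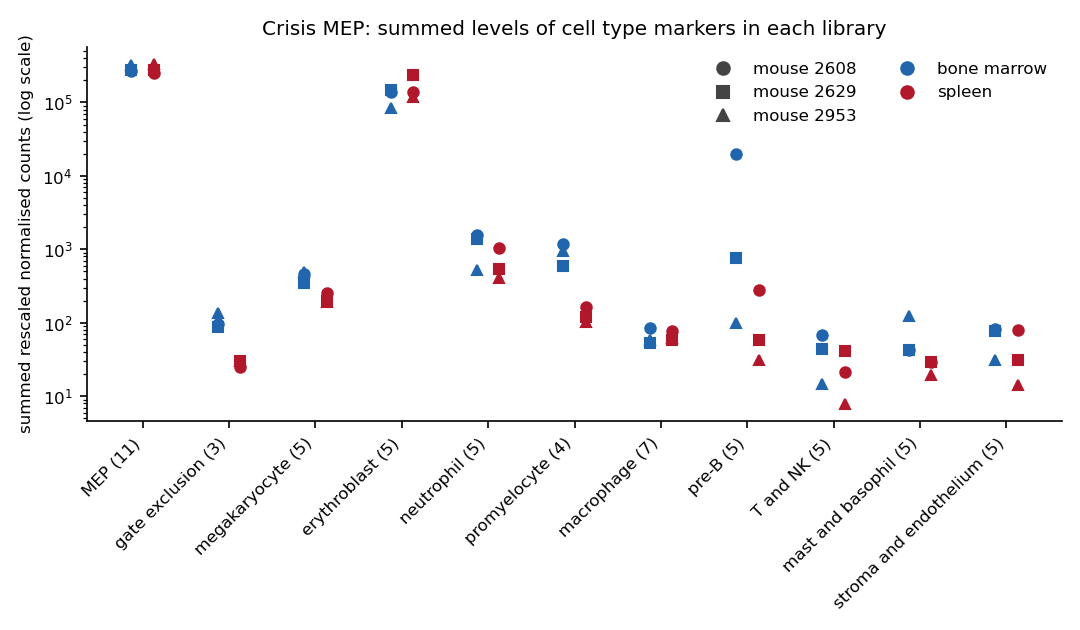
Summed rescaled normalised counts (log scale) of the markers of each cell type, with the number of markers in parentheses, in each bone marrow library (blue) and each spleen library (red) of crisis MEP. The MEP markers sum to 248144 or more in all 6 libraries, and the bone marrow library of mouse 2608 lies above all others for the pre-B markers. The mature B markers are not drawn.

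Genes of antigen presentation, myeloid cells, stem cells and megakaryocytes were among those lower in spleen MEP, and the globin genes, Col18a1 and Fn1 among those higher. Of 13736 genes tested, 607 were called, which is 4.42% of them. Spleen was higher for 160 (1.16%) and lower for 447 (3.25%). These shares are the measure for the list counts below. A short list with a lone call, or with no call, cannot be told apart from them. The median difference over all genes tested was 0.03. The median fold among called genes was 1.35 for those higher in spleen and 4.12 for those lower. A difference of at least 2-fold was found for 21 called genes higher in spleen and for 360 lower. Genes higher in spleen were abundant transcripts, with a median spleen mean of 4311. Genes lower in spleen were mostly scarce ones, whose median of group means was 229 in bone marrow and 47.9 in spleen. In bulk RNA from sorted cells, fewer cells of a type and less RNA per cell cannot be told apart.

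The number of calls rested on the pairing and on the modelled mean-variance trend. All 607 had the same sign in all 3 mice, and for 441 of them the libraries of the tissues did not overlap, as was so for 13.1% of all genes tested. Without the mouse as a block 8 genes were called, and without the mean-variance trend none was, with 2209 at an unadjusted p under 0.05. Fitted to the deposited values without rescaling, 1165 genes were called, 105 higher and 1060 lower. Leaving out a mouse gave 1714 calls without mouse 2608 (932 higher in spleen), 311 without mouse 2629 and 415 without mouse 2953. List counts with a mouse left out are to be read beside these totals.

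**Figure D2:**
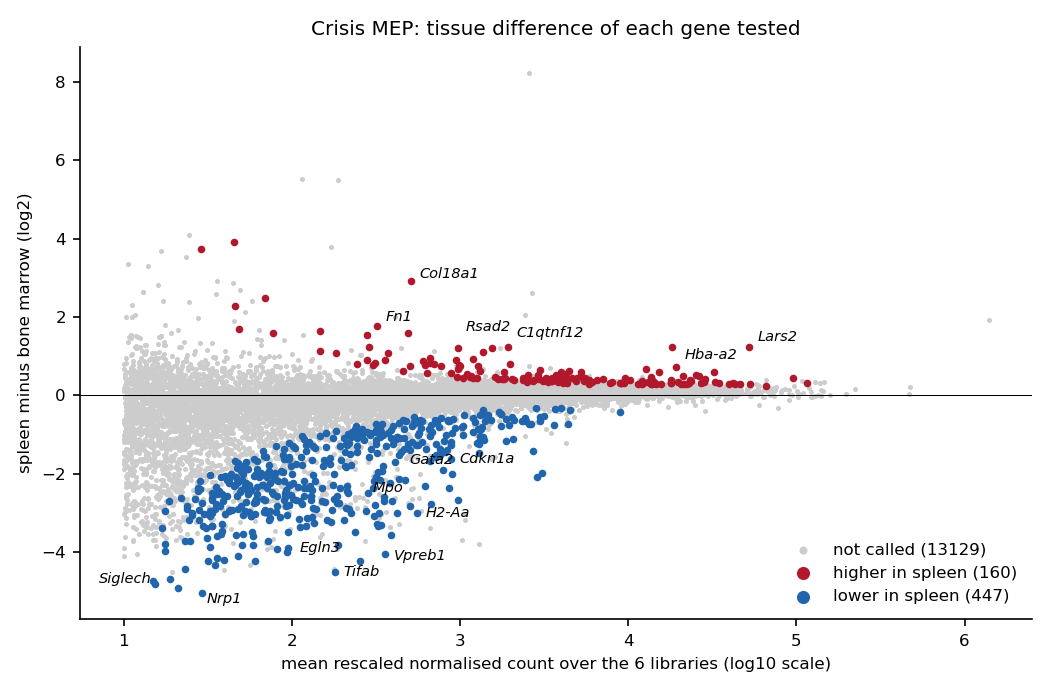
Spleen minus bone marrow difference (log2) of each of the 13736 genes tested against its mean rescaled normalised count over the 6 libraries (log10 scale). The 160 genes called higher in spleen (red) sit mostly at high levels and small differences, and the 447 called lower (blue) mostly at low levels and large ones.

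No erythroid transcription factor passed the test. Gata1, the master regulator of the lineage, was at 14364, 12632 and 10176 in bone marrow and 15871, 13213 and 10658 in spleen, a difference of 0.09 (SE 0.06, limma adjusted p = 0.425). Klf1, which drives globin and red cell genes, was at 20384, 16775 and 11843 in bone marrow and 21562, 17823 and 13035 in spleen. Both genes were highest in mouse 2608 and lowest in mouse 2953 at either site, and the tissues overlapped. None of the 16 factors of the list was called, and their median difference was 0.07. Gfi1b, a repressor needed for erythroid and megakaryocytic maturation, had a difference of 0.20 (limma adjusted p = 0.121). Without mouse 2608, 4 of the 16 were called higher in spleen, in a fit whose calls over all genes rose from 607 to 1714.

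Among the 16 genes that mark MEP and early erythroid cells, 1 rose in spleen and 1 fell. Cited4, a transcriptional co-regulator, was at 2869, 4289 and 2367 in bone marrow and 5171, 5684 and 3427 in spleen (0.60, SE 0.10, limma adjusted p = 0.0163). Gata2, which maintains progenitors and gives way to Gata1 as erythroid cells mature, was at 273, 575 and 1178 in bone marrow and 129, 230.4 and 301 in spleen (-1.45, SE 0.19, limma adjusted p = 0.00820). Gata2 was lower in spleen in every mouse, although the libraries of the tissues overlapped across mice. The stem cell factor receptor Kit was at 9387, 5267 and 20289 in bone marrow and 9131, 4695 and 18362 in spleen, and the erythropoietin receptor Epor at 9896, 7909 and 7808 and 10982, 8701 and 9527. Neither Kit nor Epor was called, and none of the 17 genes of the erythropoietin and STAT5 response list was.

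All 4 tested globin genes rose in spleen by small amounts. Hba-a1 was at 85272, 97970.2 and 56436 in bone marrow and 102774, 157937 and 74748 in spleen (0.45, SE 0.08, limma adjusted p = 0.0259), and Hbb-bt at 8199, 13837 and 7373 and 15499.9, 22509 and 9677 (0.67, SE 0.10, limma adjusted p = 0.0145). Hba-a2 differed by 0.72 and Hbb-bs by 0.33. The 2 alpha genes are near-identical copies, as are the 2 beta genes, so how reads were split within each pair is uncertain. The libraries of the tissues overlapped for all 4, and mouse 2629 was the highest at both sites. With the mouse as a random effect at an estimated correlation 1 of 5 tested was called, and without rescaling 2 of 4. Leaving out mouse 2629 left 1 of the 4 called, and leaving out mouse 2608 left 3, with Hba-a2 at a limma adjusted p of 0.223.

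Few genes of heme synthesis and the red cell membrane passed the test, and the mice did not move alike. None of the 14 heme enzymes and transporters tested was called, with a median of 0.11. The erythroid form of the first enzyme, Alas2, was at 4872, 5582 and 3846 in bone marrow and 5314, 9462 and 5899 in spleen (0.50, SE 0.12, limma adjusted p = 0.0707). Of 30 genes of the red cell membrane and late maturation, 3 rose in spleen: Tmcc2 by 0.55, the cytoskeletal adducin Add2 by 0.34 and protein 4.1 (Epb41) by 0.32. Band 3 (Slc4a1), the anion exchanger of the red cell, was at 32332, 28835 and 16025 in bone marrow and 20832, 49288 and 27461 in spleen, so it was lower in spleen in mouse 2608 and higher in mice 2629 and 2953. The list medians showed the same split: for heme synthesis -0.07, 0.15 and 0.29 in the 3 mice, and for the red cell list -0.12, 0.22 and 0.24. Without mouse 2608, calls over all genes rose from 607 to 1714. In that fit 8 of 14 heme genes and 14 of 30 red cell genes were called higher in spleen. The absence of calls over 3 mice therefore does not show equal levels.

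The lists for cell division, cytosolic ribosomal proteins and respiration held no called gene over 3 mice, beside 4.42% of all genes called. The counts were 0 of 25 genes of the G1/S transition and DNA replication (median 0.14), 0 of 25 of G2/M (median 0.11) and 0 of 42 ribosomal proteins (median 0.02). They were 0 of 29 nuclear genes of oxidative phosphorylation (median 0.12) and 0 of 13 protein-coding genes of mitochondrial DNA (median 0.04). The mitochondrial ribosomal RNAs mt-Rnr1 and mt-Rnr2, which are outside these lists, were called higher in spleen and are given below. Without mouse 2608, 13 of the 25 G1/S genes and 12 of the 25 G2/M genes were called higher in spleen, and 3 of the 42 ribosomal protein genes lower, while the respiratory lists held no call. That fit called 1714 genes in all, against 607 over 3 mice. Of 16 genes of iron uptake and storage, the ferritin light chain Ftl1 alone rose (0.30, limma adjusted p = 0.0380), beside 1.16% of all genes. The call of Ftl1 was lost in 9 of 14 alternatives, among them the random effect with its estimated correlation (limma adjusted p = 0.0720), the authors' regularised log2 table and the fits without mouse 2629 or 2953.

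**Figure D3:**
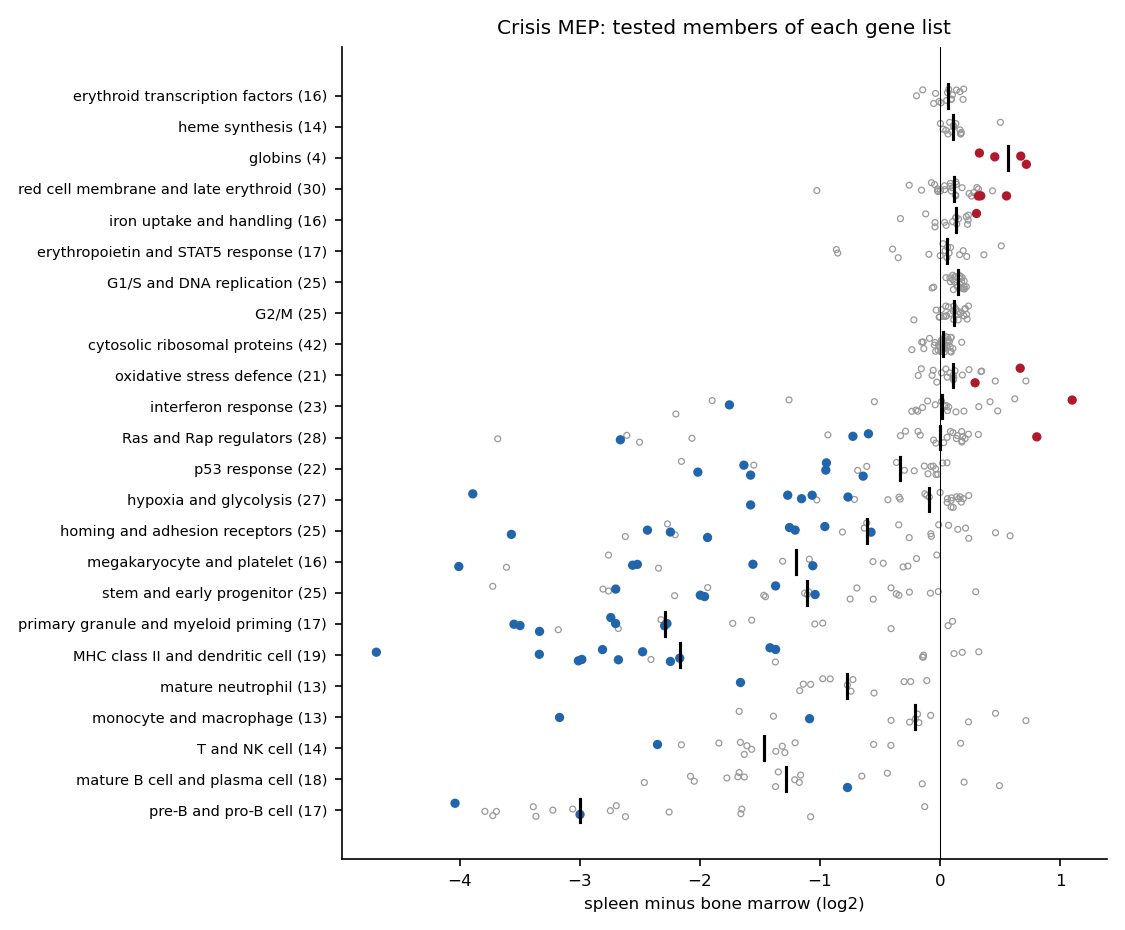
Spleen minus bone marrow difference (log2) of each tested member of 24 gene lists, with the number tested in parentheses. Filled points were called (red higher, blue lower in spleen), open points were not, and the black bars are list medians. The medians lie near 0 for the cell cycle lists and the erythroid lists other than the globins, which are at 0.56. They lie between -3.00 and -0.21 for the 9 lists at the bottom.

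Of the 12 genes with the largest rise in spleen, Col18a1 and Fn1 encode proteins of the extracellular matrix. Col18a1 (chr10:77052178-77166548, GRCm38), which encodes a basement membrane collagen, was at 155, 28.1 and 188 in bone marrow and 569, 358 and 1771 in spleen. Its difference was 2.91 (SE 0.34, limma adjusted p = 0.0115), or 7.51-fold higher. All 3 spleen values lay above all 3 bone marrow values, and mouse 2953 had the highest at both sites. Fn1 (chr1:71585520-71653200), which encodes fibronectin, a matrix ligand of integrins on erythroid progenitors, was at 81.2, 124 and 216 in bone marrow and 235, 438 and 832 in spleen (1.76, SE 0.17, limma adjusted p = 0.00269). The tissues did not overlap for Fn1, and it was 3.39-fold higher in spleen. The fibronectin receptor subunits Itga5 and Itgb1 did not pass the test: Itga5 was at 3375, 2902 and 4249 in bone marrow and 6501, 4266 and 5036 in spleen (limma adjusted p = 0.0575), and Itgb1 at 17319, 16818 and 18142 and 19332, 20059 and 22355 (limma adjusted p = 0.0743). Collagens of stroma were scarce, with Col3a1 at or below 2.99 in every library and Col1a1 at 29.2, 3.74 and 10.6 in bone marrow and 68.9, 23.6 and 5.13 in spleen.

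The other genes in the 12 with the largest rise in spleen had varied roles. C1qtnf12, a secreted protein of the C1q and TNF family, was at 1544, 1116 and 766 in bone marrow and 3788, 2609 and 1787 in spleen (1.25, SE 0.08, limma adjusted p = 0.00116). It was higher in spleen by a near-equal ratio in each mouse. Nags, the enzyme that makes the activator of the urea cycle, was at 201, 118 and 96.7 in bone marrow and 671, 325 and 258 in spleen (1.53), without overlap. The homeobox gene Nkx1-2 was at 14.8, 21.1 and 20.0 in bone marrow and 155, 149 and 55.01 in spleen (2.49). Cd248 (endosialin) differed by 1.59, the myosin heavy chain Myh7b by 1.23, the proton pump subunit Atp6v0a4 by 2.29, Grtp1 by 1.64 and Rasgef1c by 1.60. Of the 12, Atp6v0a4 and Lars2 lost their call without mouse 2608 (limma adjusted p = 0.0539 and 0.0816). Without mouse 2629 the call was lost for Grtp1 (0.106), Hist1h2bf (0.126), Nkx1-2 (0.0873) and Rasgef1c (0.114), and without mouse 2953 for Atp6v0a4, Hist1h2bf and Rasgef1c.

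Lars2 and Hist1h2bf, also among the 12, are given beside RNAs that lack a usual poly(A) tail. Some of those RNAs rose in spleen and most were not called. Lars2 is annotated as protein-coding and is not one of them. Lars2, the mitochondrial leucyl-tRNA synthetase, was at 34843, 27576 and 30787 in bone marrow and 84065, 78869.8 and 59571 in spleen (1.25). Whether all reads assigned to Lars2 came from its mRNA was not tested. The mitochondrial ribosomal RNA mt-Rnr1 was at 9234, 12277 and 11114 in bone marrow and 25479.8, 25511 and 25323 in spleen (1.24, SE 0.08, limma adjusted p = 0.00116). The small nuclear RNA Rn7sk differed by 0.75 (limma adjusted p = 0.0250), mt-Rnr2 by 0.51 (limma adjusted p = 0.00820). The predicted gene Gm42418, which lies in a ribosomal RNA repeat, was at 621370, 497472 and 603302 in bone marrow and 2464550, 2613410 and 1557410 in spleen (limma adjusted p = 0.0624). Hist1h2bf, whose histone transcript normally lacks a poly(A) tail, was at 22.1, 27.2 and 17.9 in bone marrow and 86.4, 73.0 and 64.8 in spleen. Hist1h1e (1.09) was the other of 51 tested histone genes that was called, and the 51 had a median of 0.31. The signal recognition particle RNAs Rn7s1 and Rn7s2 were at -0.36 each, lower in all 3 mice and not called (limma adjusted p = 0.438), and Rmrp, Rpph1 and Gm26917 were not called either. These RNAs were chosen after their values were seen, and their part in the other differences was not tested.

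Among response genes, few rose in spleen. Rsad2 (viperin), an antiviral protein induced by interferon, was at 789.8, 963 and 838 in bone marrow and 1853, 2223 and 1524 in spleen (1.099, SE 0.10, limma adjusted p = 0.00269), with no overlap. It was the sole riser among 23 tested interferon response genes, whose median was 0.01, and Irf1, a transcription factor of the same response, fell by 1.75 on the log2 scale. Of all genes, 1.16% rose and 3.25% fell. Of 21 genes of oxidative stress defence, the NRF2 targets Nqo1 (0.67) and Gclm (0.29) rose, and both lost their call without mouse 2629 (limma adjusted p = 0.0789 and 0.325). Of 19 tested genes of stress erythropoiesis signals, Bmpr2, a receptor for the BMP ligands that act in the stressed spleen, was at 944, 909 and 1069 in bone marrow and 1348, 1399 and 1343 in spleen (0.49, limma adjusted p = 0.0315, and 0.216 without mouse 2629). Id2, a BMP target gene in many cells, went the other way, at 95.5, 257 and 237 in bone marrow and 11.8, 63.4 and 22.0 in spleen (-2.76, SE 0.34, limma adjusted p = 0.00640).

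**Figure D4:**
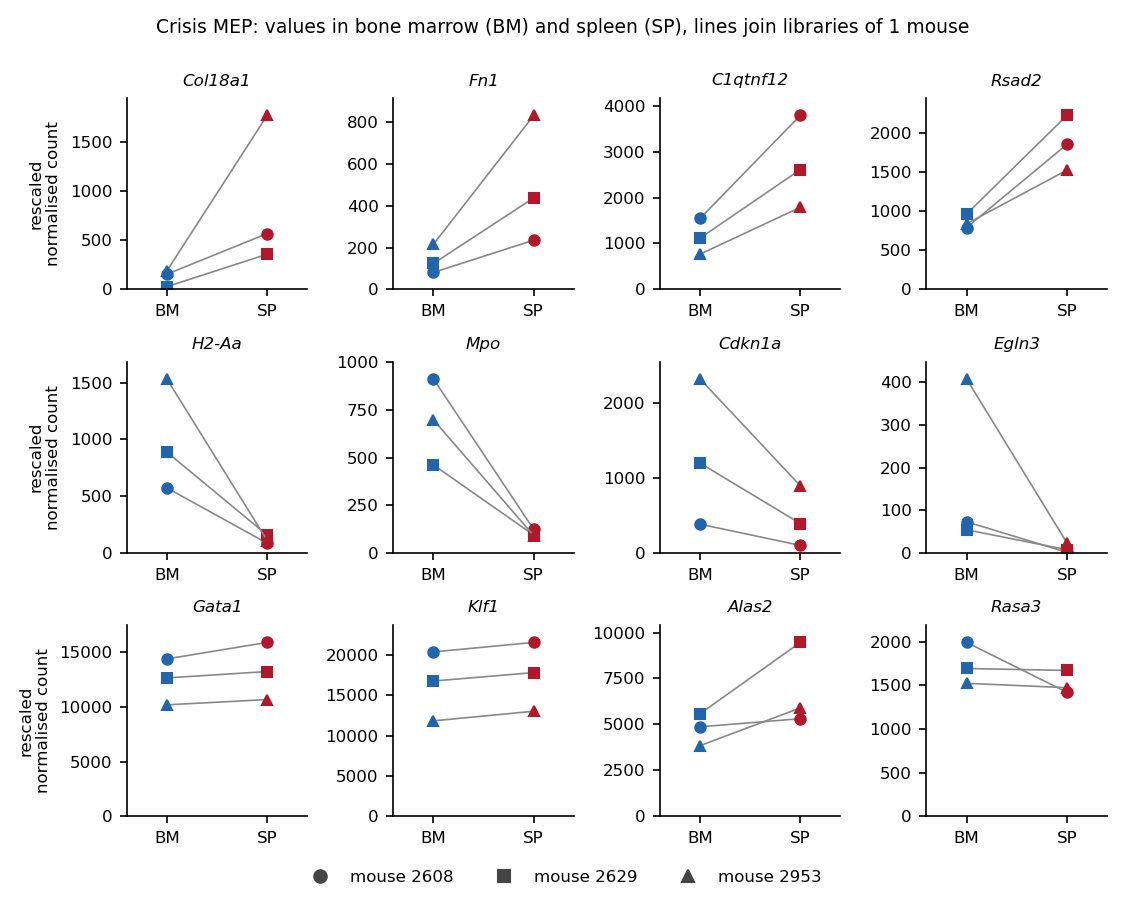
Rescaled normalised counts of 12 genes in bone marrow (BM, blue) and spleen (SP, red) of crisis MEP, with lines joining the libraries of 1 mouse. The top row rises in spleen in all 3 mice, the middle row falls in all 3, and in the bottom row Gata1, Klf1, Alas2 and Rasa3 were not called.

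Genes of MHC class II antigen presentation were lower in spleen MEP. Of 19 tested genes of the class II and dendritic cell list, 11 fell and none rose, with a median of -2.17, beside 3.25% of all genes that fell. H2-Aa, the alpha chain of I-A, was at 573, 888 and 1533 in bone marrow and 85.2, 157 and 109 in spleen (-3.01, SE 0.26, limma adjusted p = 0.00269). Its partner chain H2-Ab1 was at 485, 686 and 1152 in bone marrow and 100.5, 187 and 222 in spleen (-2.17, SE 0.16, limma adjusted p = 0.00116). The tissues did not overlap for either gene, and spleen was 8.06-fold and 4.49-fold lower. The invariant chain Cd74 was at 1031, 1616 and 2377 in bone marrow and 184, 421 and 193 in spleen (-2.68, limma adjusted p = 0.0284). Ciita, the transactivator that switches class II genes on, was at 77.4, 164 and 183 in bone marrow and 8.66, 41.8 and 10.7 in spleen (-2.98, limma adjusted p = 0.0116).

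The peptide-loading genes H2-Ob (-3.34), H2-DMb1 (-2.81) and H2-DMb2 (-1.42) fell, as did H2-Eb1 (-2.48), while H2-DMa did not pass the test. The list also held genes that are not part of antigen presentation. Ccr9, a chemokine receptor, fell by 2.25 on the log2 scale. Siglech, a marker of plasmacytoid dendritic cells, was at 40.4, 51.8 and 18.7 in bone marrow and 1.49, 0 and 0 in spleen. The progenitor and dendritic cell receptor Flt3 was at 783, 719.9 and 509.6 in bone marrow and 309.9, 258 and 207 in spleen (-1.37, limma adjusted p = 0.00269). The conventional dendritic cell genes Xcr1 and Zbtb46 and the interferon regulator Irf7 were not called. B cells also carry class II, and the bone marrow library of mouse 2608 held the most pre-B transcripts; the part of B-lineage cells in these differences was not tested. Leaving out mice 2608, 2629 and 2953 in turn left 10, 7 and 8 calls: Cd74 and H2-Eb1 were lost without mouse 2608 (limma adjusted p = 0.306 and 0.214), and H2-DMb1, H2-DMb2, Siglech and Ccr9 without mouse 2629 (0.0592, 0.0869, 0.134 and 0.132). Without mouse 2953, H2-DMb1, H2-DMb2 and H2-Eb1 were lost.

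Class II promoters share a compact module in which an inverted CCAAT element, the Y box, lies just upstream of the start site, and the members that moved together are shown with it. The Y-box core, written TGATTGG, was searched on both strands in the 250 bases before the start in RefSeq promoters of GRCm38.p6. It was found in 6 of the 7 class II genes that the promoter table holds (H2-Aa, H2-Eb1, H2-DMb1, H2-DMb2, H2-Oa and H2-Ob, not H2-DMa), and in 7.23% of all 32851 promoters. Its first base lay 45 to 92 bases before the start. The windows of 4 of them that overlap no annotated exon, in the orientation of the gene, are given 5′ to 3′ with the core in capitals.
H2-Aa, chr17:34287853-34287908, minus strand: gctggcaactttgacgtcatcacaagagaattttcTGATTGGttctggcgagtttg
H2-Eb1, chr17:34305771-34305826, plus strand: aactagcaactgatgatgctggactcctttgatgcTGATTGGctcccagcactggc
H2-DMb2, chr17:34145122-34145177, plus strand: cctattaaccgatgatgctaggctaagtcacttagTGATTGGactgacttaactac
H2-Ob, chr17:34238811-34238866, plus strand: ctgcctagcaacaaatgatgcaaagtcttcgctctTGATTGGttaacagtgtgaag
These matches describe the letters of the reference genome, and the sequence of the strain used here was not examined. The motif was chosen with the expression values known.

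Granule and myeloid genes were lower in spleen MEP. Of 17 tested genes of primary granules and myeloid priming, 7 fell and none rose (median -2.29). Mpo, the peroxidase of neutrophil granules, was at 913, 461 and 698 in bone marrow and 123, 93.6 and 90.3 in spleen (-2.70, SE 0.19, limma adjusted p = 0.00116), and was 6.51-fold lower in spleen. Mpeg1, a pore-forming protein of phagocytes, was at 680.5, 582 and 506 in bone marrow and 59.9, 82.9 and 37.3 in spleen (-3.34, limma adjusted p = 0.00116). Spi1 (PU.1), the transcription factor that opposes Gata1 at the myeloid and erythroid choice, was at 196, 264 and 512 in bone marrow and 26.1, 47.8 and 66.7 in spleen (-2.74, SE 0.24, limma adjusted p = 0.00209). Irf8, which directs monocyte and dendritic fates, was at 732, 258 and 321 in bone marrow and 38.01, 55.2 and 18.4 in spleen (-3.50, limma adjusted p = 0.00883). None of these 4 overlapped between tissues, and each kept its call with any 1 mouse left out.

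Elastase (Elane) was at 138, 52.8 and 95.0 in bone marrow and 11.7, 8.60 and 2.66 in spleen (-3.55), proteinase 3 (Prtn3) differed by -2.29 and the granule membrane protein Cd63 by -2.27. Prtn3 lost its call without mouse 2953 (limma adjusted p = 0.108) and Cd63 without mouse 2629 (0.0896). The defining promyelocyte markers (Mpo, Elane, Prtn3, Ctsg) summed to 1184, 587 and 938 in bone marrow and 166, 122 and 102 in spleen. Neutrophil markers (S100a8, S100a9, Ltf, Camp, Ngp) summed to 1582, 1394 and 516 in bone marrow and 1040.2, 547 and 412 in spleen, so those groups overlapped. Of 13 tested genes of the mature neutrophil list 1, Anxa1, fell (-1.66), and of 13 of the monocyte and macrophage list Ccr2 (-3.17) and Lyz2 (-1.09) fell, beside 3.25% of all genes. The 7 defining macrophage markers summed to 52.9 to 84.4 in bone marrow and 58.5 to 77.0 in spleen. The part of admixed myeloid cells in these differences was not tested.

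PU.1 binds purine-rich sites, and a match is shown because Spi1 and granule genes were both lower in spleen. The letters GAGGAAGT, searched on both strands in the same 250 bases, were found in the RefSeq promoters of Mpo, Elane and Prtn3 and not in those of Ctsg, Irf8 and Mpeg1, against 2.441% of all promoters. The Prtn3 window, which overlaps no annotated exon, is given 5′ to 3′ with the match in capitals, 95 bases before the start.
Prtn3, chr10:79879548-79879603, plus strand: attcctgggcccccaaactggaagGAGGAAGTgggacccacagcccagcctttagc
A match describes the letters of the reference genome and is neither a measured site nor a cause.

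Some genes of stem and early progenitor cells were lower in spleen, with 5 of 25 called, none of them higher, and a median of -1.11. Hlf, a transcription factor of hematopoietic stem cells, was at 139, 229 and 214 in bone marrow and 17.7, 33.6 and 37.7 in spleen (-2.70, SE 0.28, limma adjusted p = 0.00289). Cd34, which an MEP gate excludes, was at 91.1, 76.9 and 130.1 in bone marrow and 20.5, 25.7 and 24.8 in spleen (-1.997, limma adjusted p = 0.0199). Meis1, a homeobox factor of stem cells, fell by 1.96 on the log2 scale, and the niche ligand Angpt1 fell by 1.04. Flt3, counted above, is the fifth. Per length of transcript, Cd34 averaged 13.6 normalised counts per kilobase in bone marrow and 3.24 in spleen, against 5082 and 5434 for Gata1. Without mouse 2608, 12 of 26 tested were called lower and 1 higher, beside 1714 calls over all genes in that fit and 607 over 3 mice. Without mouse 2953, 2 stayed, Hlf and Flt3, with Cd34 at a limma adjusted p of 0.0777, Meis1 at 0.0598 and Angpt1 at 0.169.

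Some megakaryocytic genes were lower in spleen as well. Of 16 tested genes of the megakaryocyte and platelet list, 5 fell and none rose (median -1.20). Plek (pleckstrin), a platelet signalling protein, was at 167, 222 and 569 in bone marrow and 20.7, 76.8 and 60.5 in spleen (-2.56, SE 0.35, limma adjusted p = 0.0113). Itgb3, the beta chain of the fibrinogen receptor, was at 119.6, 156 and 114 in bone marrow and 8.64, 31.9 and 35.2 in spleen (-2.52, limma adjusted p = 0.0197). Nbeal2, needed for alpha granules, fell by 1.06 on the log2 scale, Rab27b by 1.56 and the alpha granule protein Mmrn1 by 4.01. The defining megakaryocyte markers varied in level. Pf4 was at 24.1, 11.1 and 22.6 in bone marrow and 2.93, 0 and 0 in spleen, and Ppbp at 1.72, 1.22 and 0 and 1.49, 0 and 3.91. Gp1bb stayed at or below 5.92 in every library. Gp9 was higher, at 323, 134 and 60.3 in bone marrow and 177, 104 and 52.9 in spleen. Itga2b was at 103, 205 and 405 in bone marrow and 71.6, 92.9 and 132 in spleen. Neither Gp9 nor Itga2b was called (limma adjusted p = 0.291 and 0.0558). The list held 9 calls without mouse 2608, 4 without mouse 2629 and 3 without mouse 2953.

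Several homing and adhesion receptors were lower in spleen MEP. Of 25 tested, 8 fell and none rose (median -0.61). Itgb2, the common chain of the leukocyte integrins, was at 610.0, 547 and 471 in bone marrow and 187, 129 and 114 in spleen (-1.94, SE 0.16, limma adjusted p = 0.00209). Selplg, the P-selectin ligand, was at 1429, 509 and 388 in bone marrow and 697, 184 and 161 in spleen (-1.25, limma adjusted p = 0.00411), lower in each mouse while the groups overlapped. Itgav (-1.21), Itga6 (-0.96), Icam1 (-2.44), the chemokine receptor Ccr9 (-2.25) and S1pr4 (-0.58), a receptor for sphingosine-1-phosphate, also fell. Leaving out mice 2608, 2629 and 2953 in turn gave 11, 4 and 6 lower calls, and 3, 0 and 1 higher.

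Some targets of p53 were lower in spleen. Of 22 tested, 6 fell and none rose, with a median of -0.33. Cdkn1a (chr17:29090976-29100727), which encodes the cell cycle inhibitor p21, was at 385, 1202 and 2328 in bone marrow and 101, 393 and 899 in spleen (-1.63, SE 0.14, limma adjusted p = 0.00209), or 3.10-fold lower. Zmat3, an RNA-binding p53 target, was at 887, 2231 and 5407 in bone marrow and 576, 1430.0 and 3423 in spleen (-0.64, SE 0.08, limma adjusted p = 0.00596). For both genes mouse 2953 was highest and mouse 2608 lowest in either tissue, so the tissues overlapped, while within each mouse spleen was the lower. Plk2 (-2.02), Phlda3 (-0.95), Eda2r (-0.95) and Ddit4 (-1.58) fell too. With the mouse as a random effect at an estimated correlation, fitted over the 12 MEP libraries of crisis and wild type, 0 of 21 tested p53 genes were called. Without mouse 2629, 2 of these 6 were called (Cdkn1a and Zmat3), and without mouse 2953, 4 were.

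Hypoxia and glycolysis genes showed 6 of 27 tested called lower in spleen and none higher, with a median of -0.09 over the list. Egln3, an oxygen-sensing prolyl hydroxylase that hypoxia itself induces, was at 73.1, 54.3 and 408 in bone marrow and 1.43, 7.53 and 23.8 in spleen (-3.89, SE 0.51, limma adjusted p = 0.00803). Slc16a3, the lactate exporter, was at 951, 1205 and 1591 in bone marrow and 576, 408 and 553 in spleen (-1.27, limma adjusted p = 0.0124). The mitophagy receptor Bnip3 fell by 1.07, Ndrg1 by 1.15, Ddit4 (listed under both headings) by 1.58 and the pyruvate kinase Pkm by 0.77 on the log2 scale. Pklr, the red cell form of pyruvate kinase, rose by 0.41 (limma adjusted p = 0.0109), a gene chosen after its value was seen. The list held 2 lower calls with the mouse as a random effect, 8 without mouse 2608, 4 without mouse 2629 and 6 without mouse 2953.

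Rasa3 itself was not called. It was at 1989.9, 1692 and 1522 in bone marrow and 1420.2, 1669 and 1472 in spleen (-0.18, SE 0.11, limma adjusted p = 0.359). Since scat changes an amino acid, the transcript level does not check the genotype. Of 28 regulators of Ras and Rap, 1 rose and 3 fell (median -0.00363). Rap1gap2, which switches off Rap1, rose by 0.80, and lost its call without mouse 2629 (limma adjusted p = 0.174) and without mouse 2953 (0.272). Sipa1l1, another Rap inhibitor, was at 2775, 2519 and 4616 in bone marrow and 1739, 1632 and 2509 in spleen (-0.73, SE 0.08, limma adjusted p = 0.00411). The Ras exchange factor Rasgrp4 fell by 2.66 and the Ras inhibitor Rasal3 by 0.60 on the log2 scale. Among 26 tested genes of ERK feedback and the immediate early response, Klf6 was called (-1.01), and of 13 of the NF-kB response Birc3 (-0.55), Rel (-2.75) and Icam1 fell. Of all genes 3.25% fell, so the lone call of the ERK list is near that share.

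The 12 genes with the largest fall in spleen were scarce in spleen MEP, and their size depends on the pseudocount. Nrp1, a co-receptor for VEGF and semaphorins, was at 42.2, 45.5 and 83.2 in bone marrow and 0, 3.71 and 0 in spleen, a difference of -5.04, and between -5.89 and -3.27 under the alternatives. The adhesion molecule Alcam was at 37.9, 54.9 and 109 in bone marrow and 0, 3.70 and 5.21 in spleen, and Tifab at 761, 159.8 and 124 and 17.4, 3.70 and 14.4. The neural glycoproteins Olfm1 (92.1, 97.8 and 259 in bone marrow, 4.28, 2.46 and 37.0 in spleen) and Mdga1 (49.9, 56.5 and 121 and 1.43, 3.80 and 3.82) showed no overlap either. Emp1 (-4.22), the cytokine Clcf1 (-4.22), Epsti1 (-4.15), the thromboxane receptor Tbxa2r (-4.09), Nynrin (-4.22), Mmrn1 and Vpreb1 complete the 12. In several of them the bone marrow library of mouse 2608 stood far above the other two: Emp1 was at 1377, 75.9 and 49.3 in bone marrow, Mmrn1 at 477, 29.4 and 38.7 and Clcf1 at 288, 39.4 and 27.9. Without mouse 2608 the difference of Emp1 was -3.03. Calls were lost without mouse 2629 for Emp1 (limma adjusted p = 0.0955), Mmrn1 (0.158), Clcf1 (0.0523) and Vpreb1 (0.208). They were lost without mouse 2953 for Emp1 (limma adjusted p = 0.173), Nynrin (0.0918) and Nrp1 (0.0546), and without mouse 2608 for Vpreb1.

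Vim, the intermediate filament vimentin, had the smallest p of all genes: it was at 1141, 604 and 903 in bone marrow and 125, 96.0 and 145 in spleen (-2.82, SE 0.17, limma adjusted p = 0.00116).

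Few lymphoid genes passed the test, and their marrow levels were uneven. Of 17 tested pre-B and pro-B genes, 2 fell (Vpreb1 and Blnk), although the list median was -3.00. Vpreb1, part of the pre-B receptor, was at 2085, 21.5 and 18.8 in bone marrow and 23.3, 1.26 and 2.80 in spleen, and without mouse 2608 its limma adjusted p was 0.0808. The recombinase gene Rag1 was at 5927, 147 and 14.7 in bone marrow and 77.5, 12.3 and 5.08 in spleen and was not called (limma adjusted p = 0.136). The list's median difference was -5.91 in mouse 2608, -2.33 in 2629 and -1.02 in 2953. One of 18 mature B cell genes (Cd37, -0.78) and 1 of 14 T and NK genes (Tcf7, -2.35) fell, beside 3.25% of all genes. The mature B list had a median of -1.28, and of -0.06 without mouse 2608. T and NK markers (Cd3e, Cd3g, Trac, Gzma, Klre1) summed to 68.0, 44.5 and 14.9 in bone marrow and 21.6, 41.98 and 7.83 in spleen. Mast cell and basophil markers summed to 42.1, 42.7 and 124 and 29.2, 29.7 and 19.7. In the list for mast cells, basophils and eosinophils 0 of 6 tested genes were called, and Pdgfrb was the sole call of 8 in the stroma and endothelium list (-1.98), which had 6 members at 0 in every library (Ccl21a, Cxcl13, Tlx1, Tcf21, Wt1 and Nkx2-5).

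The same tissue contrast was fitted in MEP of the 3 young wild-type mice. There 494 of 14027 genes were called (3.52%), with 141 higher in spleen (1.01%) and 353 lower (2.52%). Of the crisis calls, 604 were tested in wild type, and 575 of them (95.2%) had the same sign there, against 70.0% of all 13394 genes tested in both. The calls of both fits shared 134 genes, all of them changed in the same direction, which is 22.2% of the crisis calls and 27.7% of the wild-type calls that were tested in both. The crisis and wild-type fits use no library in common. Genes called lower in crisis spleen had a median difference of -2.04 in crisis and -1.06 in wild type, and the former value is that of genes selected for it. Of the 24 leading genes, 23 had the same sign in wild type and 3 were called there.

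The direct test of crisis against wild type called no gene. Of 13974 genes, limma called none at an adjusted p under 0.05 (0%), with 807 at an unadjusted p under 0.05. Leaving out crisis mouse 2608 gave 5 calls, and leaving out any other mouse of the 6 gave 0. By list, the widest gap in medians was for class II and dendritic genes, at -2.18 in crisis and -0.31 in wild type, where 10 of 19 had an unadjusted p under 0.05. H2-Aa was at 304, 315 and 713 in wild-type bone marrow and 127, 418 and 423 in wild-type spleen, on the scale of these 12 libraries. Its difference between the states was -2.49 (SE 0.49, limma adjusted p = 0.531). The p53 list had medians of -0.31 and 0.05. The stem list had -1.13 and -1.11, and the granule list -2.30 and -1.95.

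Since none passed, genes with the smallest p by the rule are given as values. Vim differed by -2.83 between tissues in crisis and -0.95 in wild type (difference -1.88, limma adjusted p = 0.187). The interleukin-18 receptor gene Il18r1 differed by -2.84 and -0.25 (limma adjusted p = 0.234), and Zmat3 by -0.65 and 0.09 (0.234). The chloride channel regulator Clca3a1 differed by 0.16 and 0.90, and the glutathione transferase Gstp1 by 0.30 and -0.07. Rasa3 was lower in wild-type spleen (-0.73, SE 0.09, limma adjusted p = 0.0210 within wild type), and the difference between the states was 0.52 (SE 0.16, limma adjusted p = 0.832).

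**Figure D5:**
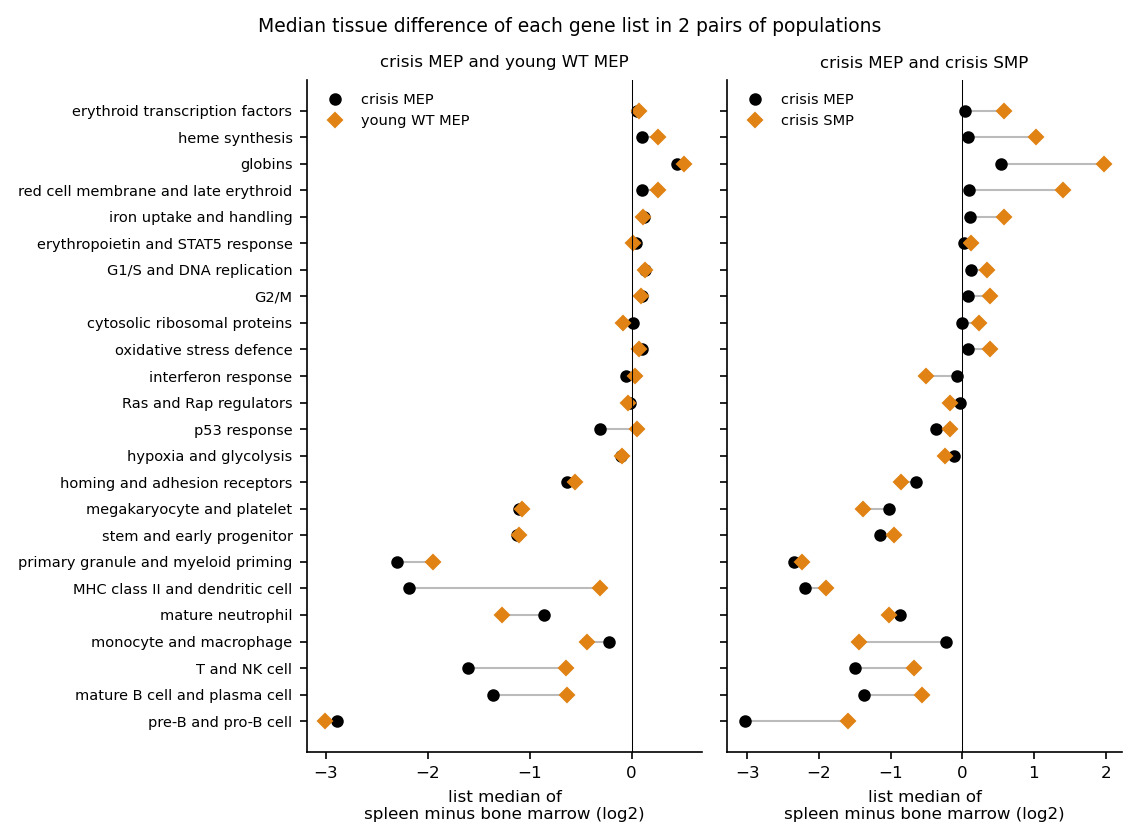
Median spleen minus bone marrow difference (log2) of 24 gene lists in crisis MEP (black circles) beside young wild-type MEP (orange diamonds, left) and beside crisis SMP of the same mice (orange diamonds, right). On the left the class II and dendritic list lies farthest apart, and on the right the heme, globin and red cell lists lie near or above 1 in SMP and at or below 0.54 in MEP.

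In SMP of the same crisis mice the erythroid lists had higher median tissue differences than in MEP. The red cell list had a median tissue difference of 0.09 in MEP and 1.405 in SMP, heme synthesis 0.08 and 1.02, and the globins 0.54 and 1.98. Granule genes were lower in spleen in both, with medians of -2.34 and -2.23. Tested gene by gene within the 3 mice, 1 of 14739 genes was called (0.00678%), with 2127 at an unadjusted p under 0.05, among them 13 of 14 heme genes and 25 of 30 red cell genes. Without mouse 2629 there were 661 calls, 602 of them lower in MEP, and without mouse 2608 and 2953 there were 2 and 0.

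The called gene was the processed pseudogene Rps16-ps2, at 2346, 0.371 and 0.0768 in bone marrow MEP and 4102, 6139 and 4075 in spleen MEP. In SMP it was at 3735, 2848 and 439.6 in bone marrow and 36.1, 4906 and 1625 in spleen, so single libraries held next to none. Its sequence resembles that of its parent gene Rps16, so the assignment of its reads is uncertain. Among genes that did not pass, the heme enzyme Alad differed between tissues by 0.07 in MEP and 1.51 in SMP (limma adjusted p = 0.185). Slc4a1 differed by 0.28 and 2.23, and the transporter Slc6a20a by -0.07 and 2.33. In the other direction, Spata13 differed by 2.59 in MEP and 0.51 in SMP, the SNARE protein Stx7 by -0.15 and -1.28, and Arhgap17 by 0.13 and -0.82. The 10 genes that the rule gives for this contrast and that did not pass all had a limma adjusted p of 0.185.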

How the data were processed

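RNA of MEP sorted from bone marrow and spleen was sequenced, and 6 of 64 libraries entered the main comparison. Deposited by the authors were 1 table with normalised counts for 26286 genes, a signal that is no longer whole reads, and 1 table of regularised log2 values (25287 genes). Per the submitters' processing notes, the tools were Bowtie2 2.2.0, RSEM and DESeq2 and the genome was GRCm38. The notes give no order of steps, and other settings are not given in the sources used here.

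The 6 columns were rescaled by their median ratio, genes whose mean fell under 10 were dropped, and log2(value + 1) was fitted with limma 3.58.1 (R 4.3.3, trended and robust empirical Bayes, two-sided). The mouse was a fixed block, and p-values were adjusted by Benjamini and Hochberg over all genes tested with a threshold of 0.05. The labels name the mouse of each library. As a check, deviations from the tissue mean in crisis MEP correlated at 0.37, 0.33 and 0.48 between libraries of the same mouse. Between different crisis mice they correlated at -0.34 to -0.10. In young wild-type MEP the same-mouse values were 0.21, 0.23 and 0.50, and those between different mice ran from -0.51 to 0.38. The spleen library of wild-type mouse 2658 correlated more with the bone marrow of mouse 2685 (0.38) than with its own (0.21), so this check did not bear out that pair. Crisis against wild type was tested on the tissue difference of each mouse, and MEP against SMP on the difference of those differences within each mouse. The wild-type contrast was fitted alone in the same way, a choice made after seeing the data. The paired fit and the fits of differences per mouse were tested on simulated data, and the alternative fits were not.

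The text names Rasa3, the 12 genes with the largest difference in each direction among called genes with the same sign in all 3 mice and a mean of at least 50 in the higher tissue, and 5 in each direction for the contrasts with wild type and SMP (by the smallest p, since none passed). Predicted genes and pseudogenes were passed over, 9 of them called higher and 11 lower, and Rps16-ps2 is named as the sole call of its contrast. It also names called and typical members of 36 gene lists, which are described by counts and medians with no test, and a few genes chosen after their values were seen. Mice, lists and genes were chosen with earlier results of these data known. Gene names and coordinates were matched for 25607 genes to GENCODE M21 (GRCm38), and promoters came from RefSeq (GRCm38.p6). Alternatives changed the scaling, pseudocount, filter, moderation, block, table and the mice included. Some results are not reported here.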

Additional observations from a re-analysis of the deposited data

Results flagged for a closer look

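For 9 results every mouse of one group moved one way between spleen and bone marrow and every mouse of the other group the opposite way, although none passed limma's test of the difference. Against young wild-type MEP these were Fkbp1a (difference 0.96 on the log2 scale), Fn1 (2.29), Slc7a6 (1.20), Hmga1 (0.55) and Zfp850 (-3.28), with limma adjusted p-values between 0.187 and 0.396. Fn1, the fibronectin gene, was 1.75 between tissues in crisis and -0.54 in wild type. Some of these signs rest on values near 0. Hmga1 differed by 0.024 and 0.013 in crisis mice 2629 and 2953. In 1 wild-type mouse Fn1 differed by -0.042, and in another Slc7a6 differed by -0.078. Fkbp1a, which encodes the small immunophilin FKBP12, was 0.58 in crisis and -0.38 in wild type. Against SMP of the same mice they were Fkbp1a (1.24), Ccdc50 (0.83), Car1 (-1.67) and March3 (-1.64), each with a limma adjusted p of 0.185. Car1 met this on the scaling of the 12 libraries of that contrast, where mouse 2953 differed by -0.00396. On the scaling of the main comparison its spleen value in that mouse (132206) was above its bone marrow value (129738). Car1, the erythroid carbonic anhydrase, was -0.36 between tissues in MEP and 1.31 in SMP. The remaining result is the pseudogene Rps16-ps2, whose tissue difference in MEP exceeded that in SMP by 9.60 on the log2 scale (limma adjusted p = 0.0396). Its size depends on the pseudocount, since 2 bone marrow MEP libraries were below 1 normalised count.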

How the results depend on the processing

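The main count of 607 calls was 8 without the replicate block (2 higher and 6 lower in spleen), 1258 with the mouse as a random effect over 12 MEP libraries, 1165 on values that were not rescaled, 927 with no filter on low values, and 0 without the trend, whether robust or not. The moderation's prior degrees of freedom were 6.21 with the trend and 1.37 without it, beside 2 residual ones. With the random effect, lower calls went from 6 to 0 in the p53 list and from 6 to 2 in the hypoxia list, and from 5 to 10 in the stem list and from 1 to 8 in the T and NK list. Leaving out 1 mouse gave 311 to 1714 calls. All 607 kept their sign under each alternative in which they were tested, and 594 of them were also called with TMM scaling and 546 in the authors' regularised log2 table. Of 102 called genes named here, 98 lost their call without the block. For crisis against wild type the count of 0 became 36 without rescaling, where the median over all genes was 0.23, and 0 to 5 with 1 mouse left out. The count of 1 for MEP against SMP became 49 without rescaling, 0 without the replicate block, 0 with a mean of at least 50, and 0 to 661 with 1 mouse left out. The 494 calls within wild type became 0 without the replicate block, 1024 without rescaling, 979 with no filter and 0 without the trend, robust or not, and 478 to 729 with 1 mouse left out. The cause was not tested for any of these. With 3 mice a tissue and values that are not whole reads, counting error could not be separated, and differences of genes near 0 in spleen depend on the pseudocount.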
